A study of Mus musculus with 4 samples.

Results

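Noncoding snoRNA host genes were followed in spermatogonia-enriched cells from Sirt7 knockout (KO) and wild-type (WT) newborn mice. The 10 members, Gas5, Snhg1, Snhg3, Snhg5, Snhg6, Snhg8, Snhg12, Snhg14, Snhg15 and Snhg17, were taken by name from a table of 78275 genes, and 9 of them passed the filter on low counts together with 19736 genes in all. None of the 9 was called between the genotypes at an adjusted p under 0.1, a threshold that 0.0861% of all genes tested passed (0.0405% higher and 0.0456% lower in KO), and their fold changes lay between -0.28 and 0.23 on the log2 scale. Gas5, Snhg8 and Snhg12 were higher in both KO libraries than in both WT libraries and Snhg14 was lower, where 39.7% of all genes tested had no overlap between the genotypes. No adjusted p of edgeR's quasi-likelihood test for a member was below 0.576.

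The study asked how the loss of SIRT7, a nuclear deacetylase, affects male germ cells. KO mice were Sirt7-/- and WT mice carried the intact gene, all on the 129S1/Sv background, and testes were taken at postnatal day (Pnd) 5. Cells were enriched by removing somatic cells through plating, with no sort, and each library came from a pellet of 200000 cells. There were 2 KO and 2 WT libraries, read as paired ends of 150 bases after a strand-specific mRNA preparation. The genotype is that of the whole animal, so effects of the loss in germ cells and in somatic cells cannot be told apart.

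Small nucleolar RNAs (snoRNAs) guide chemical modification of ribosomal RNA and other small RNAs. C/D snoRNAs carry the C and D boxes and guide 2′-O-methylation, and H/ACA snoRNAs carry an H box and an ACA end and guide pseudouridylation. In mammals most are cut from introns of a host RNA. Several noncoding hosts, Gas5 the best known, have a pyrimidine tract at the start of the RNA like that of ribosomal protein mRNAs (a 5′ terminal oligopyrimidine, or TOP, tract), and their spliced RNA is degraded by nonsense-mediated decay.

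The libraries held 22181066 and 22048692 counts in KO and 22007504 and 22114233 in WT. Sirt7 itself had 129 and 122 counts in KO libraries, against 704 and 692 in WT libraries, a log2 fold change of -2.47 ± 0.11 (SE). The KO libraries differed from each other (chi-square 7.59 per gene) about as much as from WT libraries (7.19 to 7.95), while the WT libraries differed by 3.48 per gene. Zbtb16, which encodes the spermatogonial marker PLZF, had 6234 and 5517 counts in KO and 6143 and 5890 in WT. Somatic markers were also present: 6 Sertoli cell markers summed to 1504 and 1934 counts per 1000000 (CPM) in KO and to 1655 and 1639 CPM in WT. Of 5 stromal markers 3 were called lower in KO (Postn, Col3a1 and Dcn), where 0.0456% of all genes tested were called lower. The list stood at 638.4 and 732.8 CPM in KO and 770.1 and 848.2 CPM in WT. All 3 erythroid markers were higher in both KO libraries (summed, 921.2 and 685.8 CPM, against 613.8 and 547.8 CPM in WT). Over all genes tested, both KO libraries lay above both WT libraries for 20.3%. The part of these marker differences in the values below was not tested, and in bulk RNA fewer cells of a type and less RNA per cell cannot be told apart.

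The annotation (GENCODE M39, GRCm39) placed 241 snoRNA records inside the 10 hosts on their strand, and a few of them show what the hosts carry. Snhg14 held 208 of the records, Gas5 10, Snhg1 8, Snhg12 5, Snhg17 3, Snhg3 and Snhg5 2 each, and Snhg6, Snhg8 and Snhg15 1 each. Snord80 in Gas5 and Snora16a in Snhg12 are each recorded more than once at overlapping positions. Counts here and below are of records, so these snoRNAs enter more than once. Capitals in the first set mark TGATGA (C box) and CTGA (D box), and in the last 2 sequences the first ANANNA of the middle stretch (the H box form) and the ACA 3 bases before the end.
Snord47, in Gas5, chr1:160865652-160865728, plus strand: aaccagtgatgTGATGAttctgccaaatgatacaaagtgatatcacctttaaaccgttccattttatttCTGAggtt
Snord50a, in Snhg5, chr9:88403582-88403653, minus strand: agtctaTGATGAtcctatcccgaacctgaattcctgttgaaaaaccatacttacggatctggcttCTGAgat
Snord50b, in Snhg5, chr9:88403850-88403921, minus strand: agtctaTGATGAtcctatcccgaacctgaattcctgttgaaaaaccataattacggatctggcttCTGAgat
Snord87, in Snhg6, chr1:10012688-10012774, minus strand: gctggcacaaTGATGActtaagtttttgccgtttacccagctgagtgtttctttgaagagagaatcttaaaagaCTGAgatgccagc
Snord99, in Snhg12, chr4:132038002-132038075, plus strand: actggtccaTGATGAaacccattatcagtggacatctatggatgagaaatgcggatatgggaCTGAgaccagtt
Snora24, in Snhg8, chr3:123301586-123301715, minus strand: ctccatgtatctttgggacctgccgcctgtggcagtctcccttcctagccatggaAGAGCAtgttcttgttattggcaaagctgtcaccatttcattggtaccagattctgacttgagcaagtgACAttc
Snora9, in Snhg15, chr11:6478033-6478165, minus strand: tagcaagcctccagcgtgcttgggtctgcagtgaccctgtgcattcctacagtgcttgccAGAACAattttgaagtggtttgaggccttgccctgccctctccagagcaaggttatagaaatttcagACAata

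TGATGA within the first 20 bases together with CTGA within the last 20 bases of the RNA strand was found in 206 of the 241 records in hosts and in 314 of all 1558 snoRNA records (20.2%). ACA 3 bases before the end was found in 8 of the 241 and in 301 of the 1558 (19.3%). By host, the C and D letters were present in 8 of 10 records of Gas5, 5 of 8 of Snhg1, 2 of 2 of Snhg5, 1 of 1 of Snhg6, 1 of 5 of Snhg12 and 189 of 208 of Snhg14. ANANNA starting between 35% and 65% of the length was present in 226 of the 241 and in 1204 of the 1558 (77.3%). These matches, on the RNA strand only, are of letters and not of tested sites.

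Snhg14 is the longest host, a minus-strand RNA over chr7:58957672-59628040 (670 kb) in the imprinted Prader-Willi and Angelman region. Its 208 records held 85 distinct sequences, and 130 records were 79 bases and 68 were 94 bases long. The commonest sequence stood in 33 records between positions 59043309 and 59267438, and a 94-base sequence stood in 30 records between 59328257 and 59552054. Both are shown to make the repetition visible, with C and D boxes in capitals.
Repeated 79-base record, for example Gm24866: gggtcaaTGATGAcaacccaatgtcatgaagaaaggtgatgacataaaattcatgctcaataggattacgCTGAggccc
Repeated 94-base record, for example Gm22285: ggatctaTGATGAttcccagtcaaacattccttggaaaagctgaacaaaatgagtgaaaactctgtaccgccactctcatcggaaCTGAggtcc

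The snoRNA records had almost no counts of their own in these mRNA libraries. All 33 records outside Snhg14 had 0 counts in the 4 libraries, and 2 of the 208 records in Snhg14 had 4 counts together. Over all 1558 snoRNA and scaRNA records of the table, 1237 were at 0 in every library and the counts summed to 6125. Each of the 33 lay in an intron of at least 1 host transcript, and 32 also overlapped an exon of another annotated host transcript. Reads on the overlapping bases match both the snoRNA record and its host, and how such reads were counted is not stated. Counts of 0 for these 32 therefore do not show that the snoRNAs were absent from the libraries. Of the 208 in Snhg14, 82 lay in an intron of an annotated transcript. The values below are therefore those of the long host RNAs and say nothing about snoRNA levels.

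Levels of the hosts were compared per length, in TPM (counts divided by the length of all exon bases of the gene and scaled to 1000000). Snhg1 had the highest mean level over the 4 libraries (67.7 TPM), followed by Snhg8 (61.6), Gas5 (41.0), Snhg5 (24.9), Snhg12 (22.02), Snhg17 (14.0), Snhg6 (12.2), Snhg15 (11.4), Snhg14 (1.19) and Snhg3 (1.09). For Snhg3, 64.2% of the exon bases are shared on the same strand with Rcc1, so its level and place are uncertain. The ranges over libraries overlapped for the neighbours Snhg1 and Snhg8 (64.1 to 70.6 and 55.1 to 69.9 TPM), Snhg5 and Snhg12 (22.7 to 29.4 and 20.2 to 23.5 TPM), Snhg6 and Snhg15 (11.8 to 12.8 and 10.96 to 12.1 TPM), and Snhg14 and Snhg3 (1.02 to 1.41 and 0.655 to 1.31 TPM). Within libraries, Snhg1 was above Snhg8 in all 4, while the order of each of the other pairs differed between libraries. With the longest transcript as length, Snhg6 stood at 24.8 TPM, Snhg17 at 21.9, Snhg15 at 17.3 and Snhg14 at 3.96. Snhg6 and Snhg17 then moved above Snhg12 (17.6 TPM), and Snhg6 above Snhg17. By CPM, which ignores length, Snhg1 ranked 28 and Gas5 32 among 32883 lncRNA genes, and 9 of the 10 hosts were within the first 165. By TPM, Snhg1 ranked 42, Snhg8 46 and Gas5 72, with Snhg15 at 269 and Snhg14 at 3078. All orders by TPM depend on the length used. The canonical transcripts of Gas5 and Snhg14 have 669 and 734 bases, against 4228 and 28549 exon bases in all. An order by canonical length was not computed, so the places given hold only for the lengths used.

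**Figure D1:**
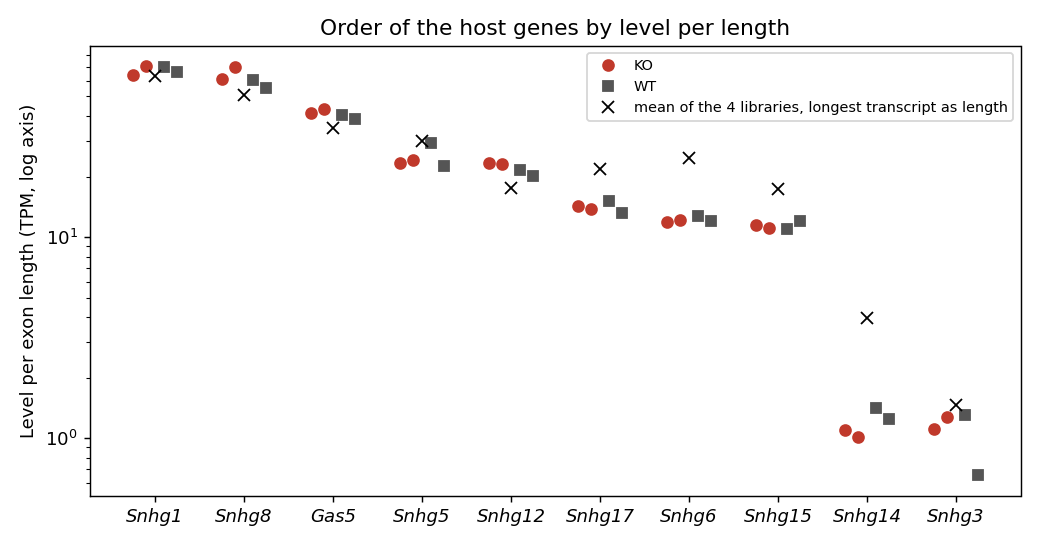
Level per length (TPM, log axis) of each host gene in the 2 KO libraries (circles) and the 2 WT libraries (squares), in the order of the mean over libraries; crosses give the mean with the longest transcript as length. With all exon bases as length, Snhg1 and Snhg8 stood at the top and Snhg14 and Snhg3 at the bottom in every library. Of the exon bases of Snhg3, 64.2% are shared on the same strand with Rcc1.

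Gas5 (growth arrest-specific 5, chr1:160861793-160866118, plus strand) hosts a run of C/D snoRNAs and is known to accumulate when growth is arrested. It had 1124 and 1165 counts in KO libraries, against 1058 and 1017 in WT libraries. Its level was 52.1 ± 1.35 CPM in KO and 47.0 ± 1.51 CPM in WT (SD, n = 2 each), with both KO libraries above both WT libraries. The log2 fold change was 0.15 ± 0.08 (SE), with a 95% interval of -0.02 to 0.32 and an edgeR adjusted p of 0.612.

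Snhg8 (chr3:123301192-123302578, minus strand), the host of the H/ACA snoRNA Snora24, had 541 and 616 counts in KO libraries, against 519 and 473 in WT libraries. In CPM it averaged 26.3 ± 2.43 in KO and 22.5 ± 1.57 in WT (SD, n = 2 each). This was the largest positive fold change of the 9 (0.23 ± 0.10, SE; 95% interval 0.00 to 0.46; edgeR adjusted p = 0.576). Snhg8 was also the only member with an unadjusted p under 0.05, which 8.62% of all genes tested had (4.48% higher and 4.14% lower in KO).

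Snhg12 (chr4:132035905-132038762, plus strand) carries both kinds of snoRNA and had 429 and 417 counts in KO libraries, against 380 and 357 in WT libraries. It averaged 19.2 ± 0.37 CPM in KO and 16.7 ± 0.81 CPM in WT (SD, n = 2 each), again without overlap. Its log2 fold change was 0.21 ± 0.10 (SE; 95% interval -0.02 to 0.43; edgeR adjusted p = 0.600). The nearby Snhg3 (chr4:132075325-132080997, minus strand), host of the H/ACA snoRNAs Snora73a and Snora73b, had only 7 and 8 counts in KO and 8 and 4 in WT and was not tested. Of its exon bases 64.2% are shared on the same strand with Rcc1, a regulator of nuclear transport, where reads of the 2 genes cannot be told apart. With the exons of the antisense Gm17300 added to those of Rcc1, the share is 100%. Reads of opposite strands can be told apart only if the counting used strand, which is not stated. Rcc1 had 3124 and 3127 counts in KO and 2835 and 2907 in WT (log2 fold change 0.13 ± 0.06, SE; edgeR adjusted p = 0.588).

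Snhg14 was the only host whose KO libraries both lay below the WT libraries, with 201 and 185 counts in KO against 250 and 220 in WT. It averaged 8.78 ± 0.51 CPM in KO and 10.6 ± 1.006 CPM in WT (SD, n = 2 each). Its log2 fold change was -0.28 ± 0.13 (SE; 95% interval -0.57 to 0.01; edgeR adjusted p = 0.588), the largest negative value of the 9. Ube3a, the ubiquitin ligase gene on the opposite strand, had 1018 and 936 counts in KO and 1112 and 1054 in WT (log2 fold change -0.14 ± 0.08, SE; edgeR adjusted p = 0.657). Among 6 tested genes of this imprinted region none was called and the median was 0.00, with Ndn at -0.14 ± 0.09 and Magel2, at 38 and 37 counts in KO and 14 and 32 in WT, at 0.71 ± 0.35 (log2, SE).

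The other 5 tested hosts had KO and WT libraries that overlapped. Snhg1 (chr19:8700319-8703812, plus strand), which hosts Snord22 and 7 further snoRNA records, had 1433 and 1567 counts in KO and 1516 and 1429 in WT (log2 fold change 0.03 ± 0.08, SE). Snhg5 (chr9:88377321-88405615, minus strand), host of Snord50a and Snord50b, had 662 and 687 counts in KO and 810 and 625 in WT (-0.08 ± 0.12 on the log2 scale, SE), and WT replicate 1 was 1.30 times WT replicate 2 in CPM.

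Snhg6 (chr1:9926809-10014504, minus strand), host of Snord87, had 435 and 446 counts in KO and 455 and 429 in WT (log2 fold change 0.00 ± 0.10, SE). Snhg15 (chr11:6473829-6478870, minus strand), host of Snora9, had 371 and 355 counts in KO and 342 and 377 in WT (0.02 ± 0.11 on the log2 scale, SE). Snhg17 (chr2:158195620-158204194, minus strand) had 769 and 737 counts in KO and 788 and 690 in WT (0.03 ± 0.09 on the log2 scale, SE). For these 5 hosts the larger gap between replicates of a genotype exceeded the difference between genotypes. Their edgeR adjusted p values lay between 0.881 and 0.997.

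**Figure D2:**
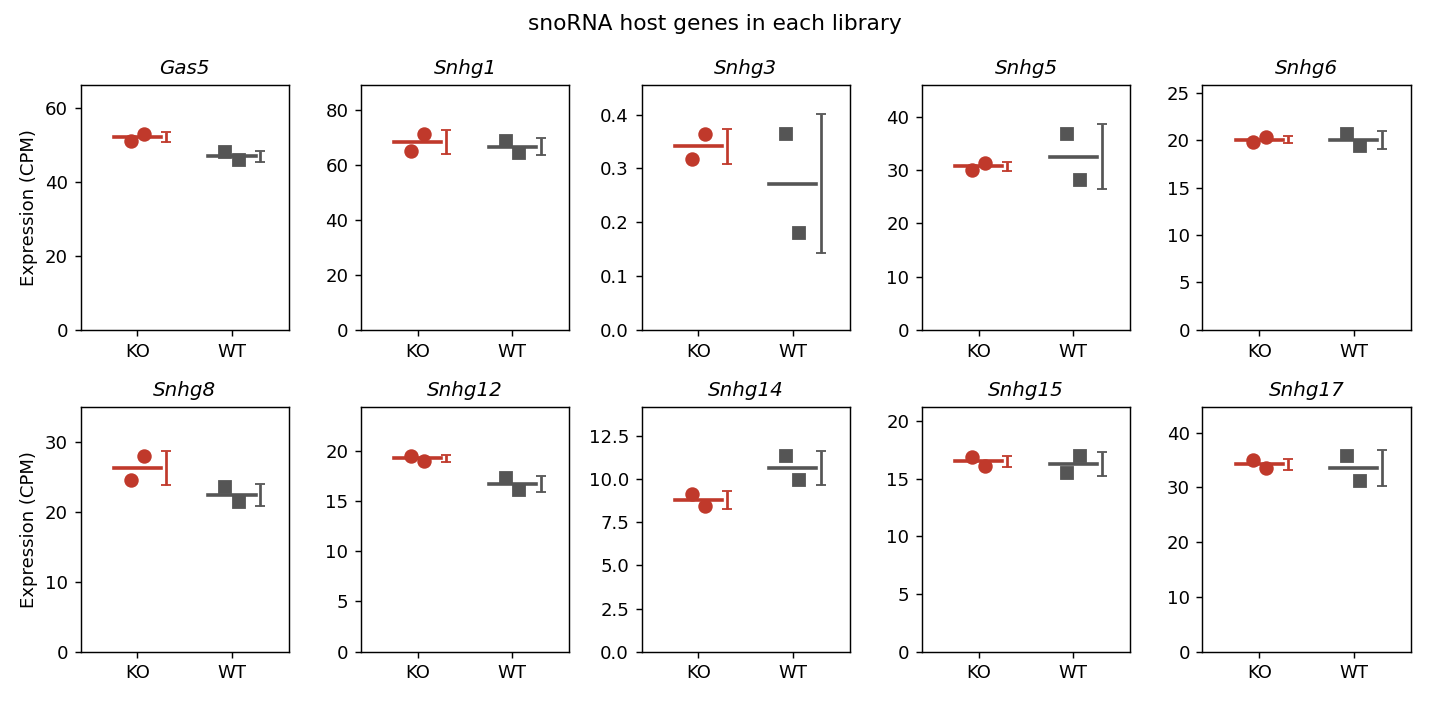
Expression in CPM of the 10 host genes in each library, KO at left and WT at right in each panel, with a bar at the mean of 2 libraries and an error bar of 1 SD; each axis starts at 0. KO points lie above WT points for Gas5, Snhg8 and Snhg12 and below them for Snhg14.

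Over the 9 tested hosts, 0 were called by edgeR's quasi-likelihood test and 1 had an unadjusted p under 0.05. DESeq2 and limma-voom also called 0, with 0 at an unadjusted p under 0.05 in either. Libraries of the genotypes did not overlap for 4 of the 9, and for 39.7% of all genes tested. Both KO libraries were above both WT libraries for 3 hosts (20.3% of all genes) and below them for 1 (19.4%). The fold changes were positive for 7 and negative for 2, with a median of 0.03 on the log2 scale, against 0.00 over all genes. Over the 3305 lncRNA genes tested the median was -0.05, with 0 called and 210 at an unadjusted p under 0.05. The 95% intervals reached from a fold of 0.675, the lower bound of Snhg14, to a fold of 1.37, the upper bound of Snhg8. Summed over the 10 hosts, the level was 271.5 and 281.4 CPM in KO and 278.2 and 253.7 CPM in WT.

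**Figure D3:**
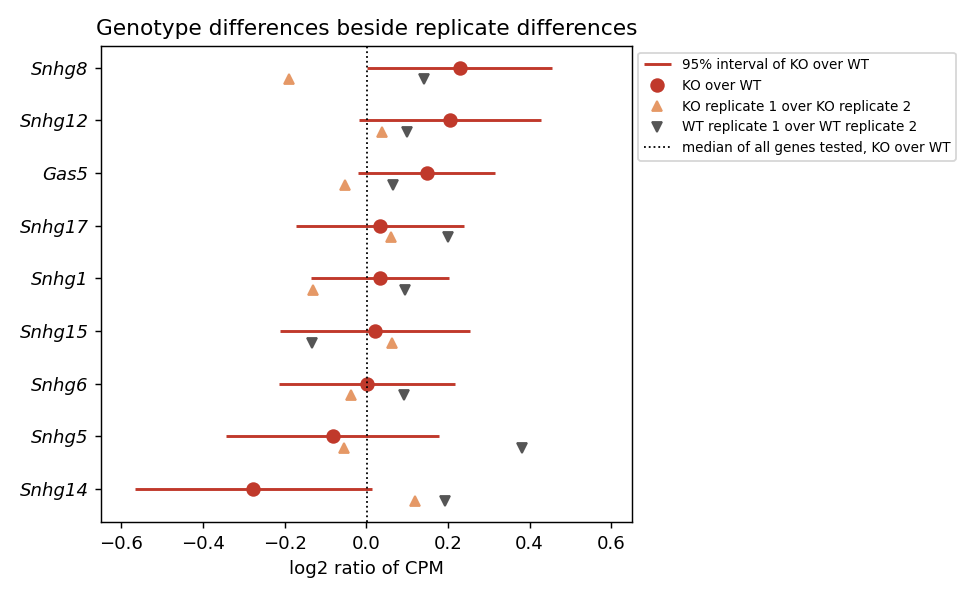
Log2 ratios of CPM for the 9 tested hosts: circles and lines give KO over WT with its 95% interval, and triangles the ratio of replicate 1 to replicate 2 within KO (upward) and within WT (downward). The genotype values run from -0.28 (Snhg14) to 0.23 (Snhg8), and the WT replicates of Snhg5 differ by 0.38.

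Fold changes moved with transcript length across these libraries. Among genes at 10 CPM or more, the median log2 fold change was 0.11 for canonical transcripts under 1000 bases (571 genes) and -0.03 for those of 4000 bases or more (4339 genes). The canonical transcripts of Gas5, Snhg8 and Snhg14 are under 1000 bases, where Gas5 (0.15) and Snhg8 (0.23) stood above the median of 0.11. Snhg14 (-0.28), at under 10 CPM, stood below the median of all tested genes of that length (0.049, 3209 genes). Those of Snhg1, Snhg5 and Snhg15 fell in the class with a median of 0.05, and those of Snhg6, Snhg12 and Snhg17 in the class with a median of 0.02. The longest annotated transcripts of Gas5, Snhg8 and Snhg14 have 3946, 1344 and 6861 bases, so their class depends on the length used. The part of transcript length in the host values was not tested.

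Host genes of other classes were read from the same fit. The other noncoding hosts were listed by name and were not checked for snoRNA records in the annotation. Of 13 tested, none was called, and the median was -0.14 on the log2 scale, against -0.05 over all lncRNA genes tested. An edgeR unadjusted p under 0.05 was found for 1 in the higher direction (Snhg4, 0.29 ± 0.13, SE; 4.48% of all genes tested). In the lower direction it was found for 3 (Rian, Meg3 and Snhg18; 4.14% of all genes tested). The imprinted RNAs Rian and Meg3 gave 1274 and 1314 counts in KO against 1683 and 1561 in WT, and 2724 and 3096 in KO against 3562 and 3706 in WT. Their log2 fold changes were -0.32 ± 0.07 and -0.31 ± 0.07 (SE; edgeR adjusted p = 0.254 for both). Snhg18 was at -0.50 ± 0.15 (edgeR adjusted p = 0.408). Snhg4 and Snhg18 were named after their values were seen.

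Among 30 ribosomal protein genes that host snoRNAs, 0 were called, 27 had positive values, 6 had an unadjusted p under 0.05, all higher (4.48% of all genes tested), and the median was 0.11. The median was also 0.11 over genes at 10 CPM or more with canonical transcripts under 1000 bases. Rplp2, which encodes an acidic stalk protein of the large ribosomal subunit, averaged 677.7 ± 22.2 CPM in KO and 546.7 ± 44.4 CPM in WT (log2 fold change 0.31 ± 0.07, SE; edgeR adjusted p = 0.244), and DESeq2 called it higher. Rpl37 was at 0.19 ± 0.06, and the most abundant of these hosts, Rpl4 and Rpsa, were at 0.05 ± 0.07 and 0.00 ± 0.07 (log2, SE). In the 221 other tested coding hosts, 0 were called and the median was -0.02. An edgeR unadjusted p under 0.05 was found for 8 in the higher and 9 in the lower direction (4.48% and 4.14% of all genes tested). Eef2, a translation elongation factor, was at -0.02 ± 0.06, the chaperone Hspa8 at -0.05 ± 0.06, Tpt1 at 0.21 ± 0.06 and the chromatin remodeller Chd3 at -0.26 ± 0.08 (log2, SE).

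**Figure D4:**
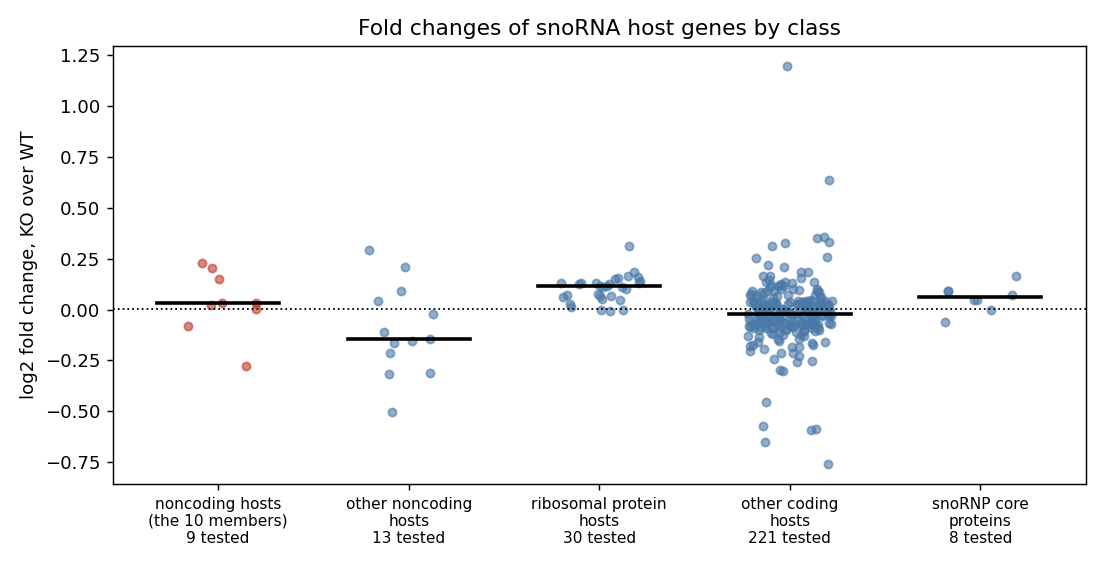
Log2 fold changes, KO over WT, of tested snoRNA host genes by class and of snoRNP core proteins; points are genes, spread sideways at random, black bars are medians, and the dotted line is the median of all genes tested. The median is 0.03 for the 9 hosts, -0.14 for other noncoding hosts, 0.11 for ribosomal protein hosts and -0.02 for other coding hosts. The other noncoding hosts were listed by name, without a check for snoRNA records.

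Genes that act on the host RNAs or on their snoRNAs were also read. None of 8 core proteins of the snoRNA particles was called (median 0.06): Fbl, the C/D methyltransferase, was at 0.07 ± 0.07, its partner Nop56 at 0.05 ± 0.06, the kink-turn binder Snu13 at 0.16 ± 0.06 and the H/ACA protein Nhp2 at 0.09 ± 0.07 (log2, SE). None of 14 assembly factors was called (median 0.09), 3 had an unadjusted p under 0.05, all higher (4.48% of all genes tested), and Znhit3 stood at 0.32 ± 0.11 (edgeR adjusted p = 0.475). Coil, the Cajal body protein, was at 0.26 ± 0.11, Nopchap1 at 0.15 ± 0.07 and Nolc1 at 0.05 ± 0.06. None of 17 nonsense-mediated decay factors was called (median -0.02): Smg1, the kinase of UPF1, was at 0.01 ± 0.07, the exon junction helicase Eif4a3 at 0.03 ± 0.07, Nbas at -0.26 ± 0.09 and Upf3b at -0.30 ± 0.13. Among 13 genes of TOP translation and growth control none was called (median -0.01). Larp1, which binds TOP mRNAs, was at -0.08 ± 0.06, and Eif4ebp1, an inhibitor of cap-dependent translation, at 0.23 ± 0.06 (edgeR adjusted p = 0.366). Eif4ebp2 was at -0.05 ± 0.06 and Rheb, an activator of mTORC1, at 0.15 ± 0.07.

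The starts of the annotated transcripts bear on the TOP class to which Gas5 belongs. A TOP-like start was defined as a C followed by at least 4 further pyrimidines. At the start with the most annotated transcripts of a gene, a choice made after seeing the annotation, 3 of 10 hosts had such a start (3.68% of genes tested), while at the outermost start 0 of 10 did (3.73%). The first 30 bases are shown for the 3 and for Snhg1, with the pyrimidine run in capitals (5′ to 3′, GRCm39).
Gas5, from chr1 position 160862736, plus strand, 80 of 229 transcripts: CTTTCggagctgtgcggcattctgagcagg
Snhg6, from chr1 position 10014343, minus strand, 13 of 55 transcripts: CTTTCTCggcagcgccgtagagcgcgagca
Snhg12, from chr4 position 132035987, plus strand, 14 of 48 transcripts: CCTTTCTCgcttcatccgcggtccctgtct
Snhg1, from chr19 position 8700851, plus strand, 14 of 35 transcripts: CTCatttttccttgttcggggtaagtactc

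Any annotated transcript with such a start was found for 9 of 10 hosts and for 20.6% of genes tested, and the hosts carry 5 to 229 annotated transcripts, against a median of 10 over genes tested. Of the 3 hosts whose most used annotated start was TOP-like, Gas5 (0.15) and Snhg12 (0.21) had KO libraries above WT and Snhg6 (0.00) did not. Over all genes tested, 20.3% had both KO libraries above both WT libraries. Snhg8 (0.23), whose most used start was not TOP-like, also had both KO libraries above WT. That start belonged to only 2 of the 8 annotated Snhg8 transcripts, and 1 of the 8 had a TOP-like start. A relation of fold changes to TOP-like starts was not tested.

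Reads of overlapping genes limit some of these values. Shares of exon bases were taken without the snoRNA records. Exons of another gene on either strand covered 21.3% of the exon bases of Snhg1, 16.9% of Gas5 and 11.6% of Snhg5. The share was 9.71% for Snhg14 and 9.43% for Snhg6, while Snhg8 and Snhg12 shared none. On the same strand it was 3.39% for Snhg14 and 0% for Snhg1, Gas5, Snhg5 and Snhg6. The snoRNA records that overlap host exons add same-strand overlap that these shares leave out, also for Snhg8 and Snhg12. The preparation kept the strand, but whether the counting used it is not stated. Neighbours named here were not called: Slc3a2, which starts 789 bases from Snhg1 on the other strand, was at 0.07 ± 0.06, and Zbtb37 beside Gas5 was at -0.06 ± 0.11 (log2, SE). Multi-copy records of Snhg14 also share sequence, and how reads that match several copies were counted is not stated.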

How the data were processed

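RNA was sequenced from 2 KO and 2 WT pellets. The authors aligned reads with HISAT2 to GRCm39 and deposited raw counts per gene from featureCounts; the sources used here give no tool version, annotation, strand setting or multi-mapping setting. Counts of 78275 genes were matched to GENCODE M39 IDs (78263 matched, 12 did not). Genes were filtered by filterByExpr (minimum count 10) and scaled by TMM, and genotypes were compared with edgeR 4.0.16 quasi-likelihood tests in R 4.3.3, with Benjamini-Hochberg adjustment over 19736 genes and calls at adjusted p under 0.1. DESeq2 1.42.0, limma-voom (limma 3.58.1), other filters and scalings, a replicate block and each library left out were alternatives. CPM are scaled to 1000000 counts; TPM uses union exon length. All 10 members are named; from each other list of hosts or factors, called genes or, with none, the 2 with the highest CPM and the 2 with the smallest p were named. The members and lists were chosen with earlier results of these data known. The methods describe the RNA-seq replicates as independent and biological; p-values reflect the spread among these libraries only. Sequences were read from GENCODE M39 (GRCm39). The test was checked on simulated counts.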

Additional observations from a re-analysis of the deposited data

How the results depend on the processing

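Under 11 alternatives, 0 of the 99 values of the 9 tested hosts passed an adjusted p under 0.1; the smallest adjusted p was 0.405. Gas5, Snhg8 and Snhg12 stayed positive and Snhg14 negative under all 11, with ranges of 0.12 to 0.18 for Gas5, 0.14 to 0.32 for Snhg8, 0.16 to 0.26 for Snhg12 and -0.37 to -0.18 for Snhg14. In 10 of 99 the direction reversed, 8 of them with a library left out: ranges were -0.029 to 0.097 for Snhg1, -0.26 to 0.12 for Snhg5, -0.043 to 0.052 for Snhg6, -0.041 to 0.090 for Snhg15 and -0.062 to 0.14 for Snhg17. Snhg6 was -0.0087 with total-count scaling and -0.00056 with a filter of 1 CPM in 2 libraries. The median of the hosts was 0.12 without WT replicate 1 and ranged from -0.012 to 0.12 with a library left out. Calls over all genes numbered 17, against 45 with DESeq2, 0 with no filter (2032 genes at an unadjusted p under 0.05), and 9 at an adjusted p under 0.05; leaving out a library gave 0 to 465, with 465 without KO replicate 2 and 0 without WT replicate 1 (596 genes at an unadjusted p under 0.05) or WT replicate 2 (824), with 8 without KO replicate 1. The replicate block gave 236 calls, although same-numbered samples share only a number (r = 0.14 over 10057 genes); for other noncoding hosts it gave 2 (Meg3 and Rian), for ribosomal protein hosts 1 (Rplp2) and for other coding hosts 1 (Itgbl1). DESeq2 called 1 ribosomal protein host (Rplp2). With a library left out, calls among other noncoding hosts, growth control genes, ribosomal protein hosts and other coding hosts were most frequent without KO replicate 2. The spread comes from the WT pair alone in that fit and also in the fit without KO replicate 1. The cause of the difference between these fits was not tested. With 2 libraries a genotype, changes smaller than the intervals given could not be resolved, and Snhg3 had too few counts to test.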
